A study of Homo sapiens with 70 samples.

Results

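The genes described here are 10 genes of ferroptosis and iron handling: SLC7A11, CHAC1, GPX4, AIFM2, ACSL4, TFRC, FTH1, FTL, NCOA4 and SLC40A1. They were taken by gene symbol from the authors' deposited tables, as the representative transcript of each symbol, and are 10 of 20090 genes measured. All 10 were found, had a nonzero count in all 70 libraries and passed every minimum on expression used below. Hep3B and Huh7 are established lines from human hepatocellular carcinoma, and their poly-A RNA had been sequenced 24 h after drug was added. The cells had received 5 µM GW3965, an agonist of the liver X receptors (LXR), or 2 µM sorafenib, a drug against RAF kinases and a number of receptor tyrosine kinases. Other cells had received both drugs at these doses, or the vehicle DMSO. The comparisons ask what the LXR agonist does to liver cancer cells alone and together with sorafenib. Hep3B had 9 libraries in each of the groups GW3965, sorafenib, both drugs and DMSO. Huh7 had 8 libraries labelled GW3965, 9 labelled sorafenib, 9 with both drugs and 8 with DMSO. Each group is a culture of 1 line, and separate cultures behind its libraries are not stated in the labels, so the p-values reflect library-to-library spread that may be technical in origin.

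Ferroptosis is a form of cell death in which iron drives the peroxidation of membrane phospholipids that carry polyunsaturated fatty acids. Cells hold it back by importing cystine for glutathione, which GPX4 uses to reduce lipid peroxides, and by a parallel defence in which AIFM2, also called FSP1, regenerates reduced coenzyme Q. The iron supply is set by uptake through the transferrin receptor, storage in ferritin, release of stored iron by ferritin autophagy, and export through ferroportin. Hepatocytes store much of the body's iron, and sorafenib has been studied as an inducer of ferroptosis in liver cancer cells.

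The values are the authors' edgeR results for each drug group, set against the DMSO libraries of that line: a mean log2 CPM (the read count scaled to library size), a log2 fold change of drug over DMSO, a p-value and a false discovery rate (FDR). A gene was called at an FDR under 0.05. Group levels in CPM were worked out from the mean and the fold change of each table, so each line has 3 DMSO values, 1 per table, which differ by small offsets of scaling. Values of single libraries were not used here, so the authors' p-values are the sole measure of spread between libraries, and depth per library is unknown.

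The labels were checked with ABCG1, a target gene of LXR, and DUSP6, a phosphatase gene that follows ERK activity. In the authors' deposited Hep3B tables ABCG1 had log2 fold changes of 5.99 with GW3965, 0.59 with sorafenib and 6.46 with both drugs, and DUSP6 had 0.33, -2.40 and -2.55 in the same order. In the authors' deposited Huh7 tables ABCG1 had 0.75 in the group labelled GW3965, 3.82 in the group labelled sorafenib and 4.37 with both drugs, and DUSP6 had -1.70, -0.02 and -1.68. These markers go against the labels of the Huh7 single-drug groups, which are therefore called "labelled GW3965" and "labelled sorafenib" throughout and were not reassigned. The 11 hepatocyte-derived markers were lowest with both drugs, where they summed to 11147 CPM in Hep3B, against 16997 CPM with DMSO, and to 12126 CPM in Huh7, against 19908 CPM with DMSO. The single-drug groups summed to 14727 to 14782 CPM in Hep3B, against 16072 to 17025 CPM with DMSO, and to 19585 to 21390 CPM in Huh7, against 20377 to 20584 CPM with DMSO. With both drugs 8 of the 11 fell (23.6% of all genes) and 1 rose (26%) in Hep3B in the authors' deposited tables. In Huh7, 7 fell (17.3% of all genes) and 0 rose (24.3%) with both drugs in the authors' deposited tables. Among these TTR, AFP and APOA2 had log2 fold changes of -1.89, -1.79 and -1.71 in Hep3B and -1.59, -1.16 and -0.96 in Huh7 in the authors' deposited tables, all with an edgeR FDR of 9.45e-10 or lower. The leukocyte marker PTPRC stayed between 0.226 and 0.261 CPM in Hep3B and between 0.266 and 0.556 CPM in Huh7, and the 3 endothelial markers summed to at most 0.765 CPM in Hep3B and 1.72 CPM in Huh7. The 4 stellate cell or fibroblast markers summed to 5.24 to 13.9 CPM in Hep3B and 72.7 to 107 CPM in Huh7, led by COL1A2 in Huh7. The 3 leukocyte markers summed to 12.9 to 19.9 CPM in Hep3B and 4.10 to 5.68 CPM in Huh7, mostly CD68, and the 2 cholangiocyte markers to 44.7 to 126 CPM and 66.5 to 109.6 CPM, mostly SOX9. The part of these markers in the results, with both drugs above all, was not tested.

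SLC7A11 and CHAC1 rose in every drug group of both lines. ACSL4 fell with both drugs in both lines, and NCOA4 fell in the same groups by less. In the authors' deposited table for Hep3B with GW3965, 4 of the 10 genes were called, where 6.79% of all genes were called, 3 of them higher (4.51% of all genes) and 1 lower (2.28%). With sorafenib in Hep3B 8 were called, against 34.7% of all genes, 6 of them higher (17.3% of all genes) and 2 lower (17.4%), by the authors' deposited table. With both drugs in Hep3B 9 were called, against 49.6% of all genes, 5 of them higher (26% of all genes) and 4 lower (23.6%), by the authors' deposited table. By the authors' deposited Huh7 tables, 7 were called in the group labelled GW3965, against 20.4% of all genes, 4 of them higher (9.13% of all genes) and 3 lower (11.3%). The Huh7 group labelled sorafenib had 2 called, against 2.05% of all genes, both of them higher (1.25% of all genes) and 0 lower (0.796%), by the authors' deposited table. Huh7 with both drugs had 8 called, against 41.6% of all genes, 6 of them higher (24.3% of all genes) and 2 lower (17.3%), by the authors' deposited table. By the authors' deposited tables, the median log2 change of the 10 genes was 0.08, 0.37 and 0.20 in Hep3B with GW3965, sorafenib and both drugs, and the median of all genes was -0.02, 0.09 and -0.06. In Huh7 the median of the 10 genes was 0.19 labelled GW3965, -0.03 labelled sorafenib and 0.37 with both drugs, and that of all genes was -0.07, 0.01 and 0.16 in the authors' deposited tables. The shares are over all 20090 genes, of which 11397 to 11648 had a mean of at least 2 CPM, as all 10 members did. The share called among genes of like expression was not worked out, so the gap to the 10 genes may be smaller. The 3 comparisons of a line share their DMSO libraries.

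**Figure D1:**
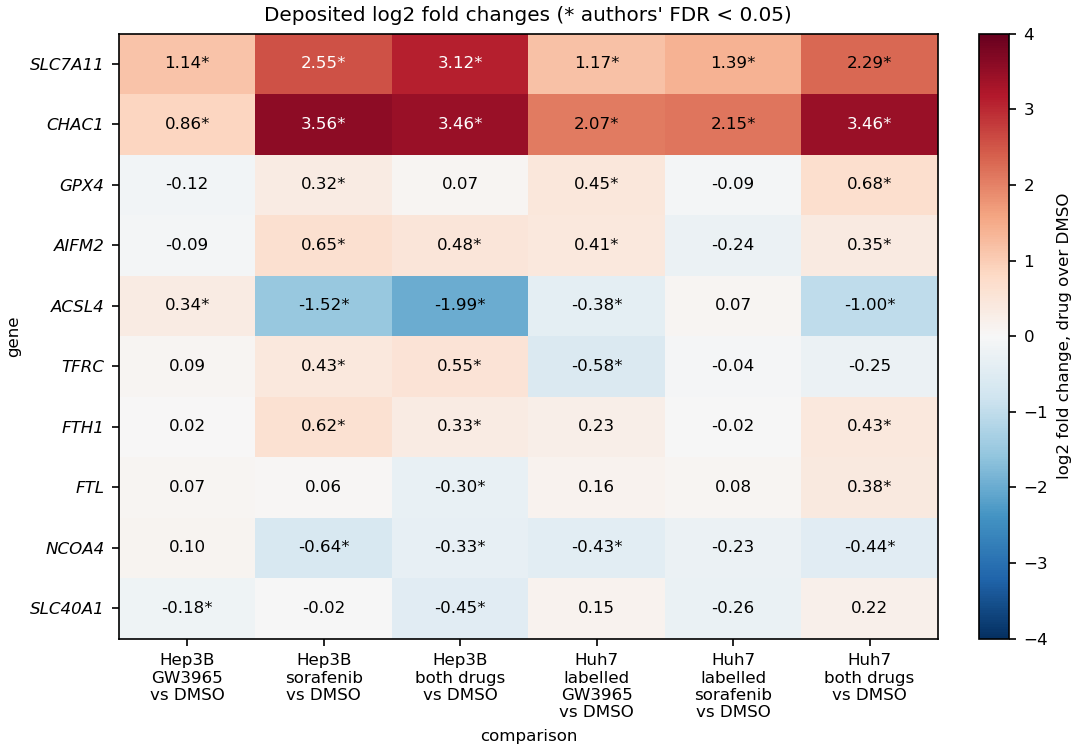
Log2 fold change, drug over DMSO, of the 10 genes (rows) in the 6 comparisons of the authors' deposited tables (columns), with an asterisk where the authors' edgeR FDR is under 0.05. SLC7A11 and CHAC1 are above 0 and called in all 6 columns, from 0.86 to 3.56, and ACSL4 reaches -1.99 with both drugs in Hep3B.

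SLC7A11 encodes the transport subunit of the cystine/glutamate antiporter, the route by which cystine enters for glutathione synthesis. Its level implied by the authors' deposited tables was 26.7 CPM with GW3965, 74.6 CPM with sorafenib and 110.5 CPM with both drugs in Hep3B, against 12.2 to 12.7 CPM with DMSO. In Huh7 it was 52.9 CPM labelled GW3965, 58.2 CPM labelled sorafenib and 109 CPM with both drugs, against 22.2 to 23.6 CPM with DMSO. Every drug group was thus above its DMSO group, and the highest level in each line was with both drugs. The authors' deposited log2 fold changes were 1.14, 2.55 and 3.12 in Hep3B (edgeR FDR 1.07e-18, 3.55e-74 and 3.75e-215). Those of Huh7 were 1.17 labelled GW3965, 1.39 labelled sorafenib and 2.29 with both drugs in the authors' deposited tables (edgeR FDR 3.12e-05, 4.51e-15 and 4.94e-105). As in any bulk sample, a change in RNA per cell cannot be told apart here from a change in which cells were left in the well.

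CHAC1 encodes an enzyme that breaks glutathione down, and it is a known target of the ATF4 arm of the stress response. Its implied level in the authors' deposited tables was 13.7 CPM with GW3965, 92.9 CPM with sorafenib and 86.9 CPM with both drugs in Hep3B, against 7.55 to 7.91 CPM with DMSO. Huh7 cells held 11.7 CPM labelled GW3965, 11.2 CPM labelled sorafenib and 28.2 CPM with both drugs, against 2.54 to 2.78 CPM with DMSO. The Hep3B sorafenib and both-drug groups stood close to each other and far above GW3965 alone, whereas in Huh7 both single-drug groups stood at about the same level and the both-drug group above them. With both drugs CHAC1 rose 10.99-fold in Hep3B and 11.02-fold in Huh7 in the authors' deposited tables, log2 fold changes of 3.46 in each line (edgeR FDR listed as 0 in Hep3B and 8.53e-189 in Huh7). The other log2 fold changes in the authors' deposited tables were 0.86 with GW3965 and 3.56 with sorafenib in Hep3B, and 2.07 labelled GW3965 and 2.15 labelled sorafenib in Huh7, all with an edgeR FDR of 3.99e-09 or lower.

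The wider list of cystine uptake and glutathione genes, which holds SLC7A11 and CHAC1 among its 12, moved mostly upwards. Counted in the authors' deposited tables, 5 rose and 0 fell with GW3965 in Hep3B, 9 rose and 0 fell with sorafenib, and 9 rose and 1 fell with both drugs. In Huh7, 7 rose and 1 fell labelled GW3965, 5 rose and 0 fell labelled sorafenib, and 8 rose and 0 fell with both drugs in the authors' deposited tables. Of all genes, 4.51%, 17.3% and 26% were called higher in Hep3B in this order, and 2.28%, 17.4% and 23.6% lower. In Huh7 9.13%, 1.25% and 24.3% of all genes were called higher, and 11.3%, 0.796% and 17.3% lower. The cystine list's median log2 fold change in those tables was 0.22, 0.99 and 1.47 in Hep3B and 0.57, 0.35 and 0.71 in Huh7, in the same order. SLC3A2, the heavy chain that pairs with SLC7A11, had log2 fold changes of 0.38 with GW3965, 2.24 with sorafenib and 3.31 with both drugs in Hep3B in the authors' deposited tables (edgeR FDR 4.77e-07, 1.7e-71 and 3.74e-125). In Huh7 SLC3A2 had 0.81 labelled GW3965, 0.72 labelled sorafenib and 2.20 with both drugs in the authors' deposited tables (edgeR FDR 0.000477, 9.18e-18 and 7.02e-75). GCLM, the modifier subunit of the rate-limiting enzyme of glutathione synthesis, rose by 1.08 with sorafenib and by 1.80 with both drugs in Hep3B, and by 0.44 with both drugs in Huh7 (log2, authors' deposited tables, edgeR FDR 3.06e-23, 6.52e-104 and 0.00174). In the other 3 comparisons GCLM was not called, with values from -0.15 to 0.29 in the authors' deposited tables. CTH, which makes cysteine from cystathionine, rose by 1.18 with sorafenib and by 2.04 with both drugs in Hep3B, and by 0.94 labelled GW3965 and by 2.22 with both drugs in Huh7 (log2, authors' deposited tables, edgeR FDR 4.86e-14, 4.99e-43, 0.00131 and 1.23e-65). SLC1A5, a glutamine carrier, rose by 0.50, 1.24 and 1.64 with GW3965, sorafenib and both drugs in Hep3B, and by 0.41 labelled sorafenib and 0.66 with both drugs in Huh7 (log2, authors' deposited tables, edgeR FDR 2.5e-14, 1.26e-36, 3.49e-103, 9.81e-08 and 3.47e-13). It had a called value of -0.26 in Huh7 labelled GW3965 in the authors' deposited table (edgeR FDR 0.019). CBS, which makes cystathionine, rose in all 6 comparisons, by 0.17 to 1.06 (log2, authors' deposited tables, edgeR FDR 0.0214 or lower).

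GPX4 encodes the selenoenzyme that reduces phospholipid hydroperoxides with glutathione. The authors' deposited tables imply a level of 377 CPM with GW3965, 541 CPM with sorafenib and 457 CPM with both drugs in Hep3B, against 410.3 to 434 CPM with DMSO. The Huh7 groups had 245 CPM labelled GW3965, 166 CPM labelled sorafenib and 277 CPM with both drugs, against 172 to 179.6 CPM with DMSO. GPX4 thus rose in 3 groups, by less than 2-fold in each. The log2 fold changes in the authors' deposited tables were 0.32 with sorafenib in Hep3B (edgeR FDR 0.0209), 0.45 in Huh7 labelled GW3965 (edgeR FDR 3.52e-05) and 0.68 in Huh7 with both drugs (edgeR FDR 1.32e-21). The remaining values, -0.12 with GW3965 and 0.07 with both drugs in Hep3B and -0.09 labelled sorafenib in Huh7, were not called in the authors' deposited tables (edgeR FDR 0.328, 0.65 and 0.905).

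AIFM2 encodes the oxidoreductase that keeps coenzyme Q reduced at the plasma membrane. The 60 bases upstream of its transcript start (RefSeq, GRCh38.p14, chr10:70132826-70132885, minus strand) are shown because 1 of the motifs searched lies in them.
AIFM2 upstream stretch: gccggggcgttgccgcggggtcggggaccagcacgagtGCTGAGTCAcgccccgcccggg
The capitals mark a match to TGACNNNGC, the core of the antioxidant response element, on the opposite strand, with its first base at -22 from the start. Searched on both strands in windows of 250 bases before to 50 after each start, TGACNNNGC was in 13.3% of 35116 RefSeq windows. Windows were given for 8 of the 10 genes, all but SLC7A11 and FTH1, and the only other match was in NCOA4, TGACAGTGC at +24. TGATGCAAT and TGATGNAAT, letters of the composite C/EBP-ATF site, were in 0.236% and 0.991% of all windows and TGACGTCA, the cyclic AMP response element, in 1.85%, and these letters were in no window of the 8 genes. The searched motifs can overlap each other. A match describes the letters only.

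AIFM2 was at 31.4 CPM with GW3965, 55.3 CPM with sorafenib and 49.1 CPM with both drugs in Hep3B, against 33.4 to 35.3 CPM with DMSO, as implied by the authors' deposited tables. For Huh7 it was at 13.6 CPM labelled GW3965, 8.58 CPM labelled sorafenib and 12.5 CPM with both drugs, against 9.80 to 10.2 CPM with DMSO. AIFM2 thus rose in 4 groups, the same 3 as GPX4 and Hep3B with both drugs. Its log2 fold changes in the authors' deposited tables were 0.65 with sorafenib and 0.48 with both drugs in Hep3B (edgeR FDR 6.53e-13 and 7.38e-09), and 0.41 labelled GW3965 and 0.35 with both drugs in Huh7 (edgeR FDR 0.000603 and 0.0196). GW3965 in Hep3B (-0.09) and the group labelled sorafenib in Huh7 (-0.24) were not called in the authors' deposited tables (edgeR FDR 0.582 and 0.405). AIFM2 overlaps H2AFY2 on the opposite strand, and the use of strand in the authors' counting is not given in the sources. H2AFY2 had log2 fold changes of 0.27 with sorafenib and -0.22 with both drugs in Hep3B and 0.62 labelled GW3965 and 0.41 with both drugs in Huh7 in the authors' deposited tables (edgeR FDR 0.0147, 0.0435, 1.62e-07 and 2.61e-05). It moved with AIFM2 in 3 of these groups and against it in Hep3B with both drugs, and its part in the AIFM2 values was not tested.

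Among the 12 genes of lipid peroxide defence, GPX4 and AIFM2 included, more rose than fell in every group but Huh7 labelled GW3965. With GW3965 in Hep3B, 2 rose and 0 fell, with sorafenib 4 rose and 2 fell, and with both drugs 6 rose and 3 fell. In Huh7, 2 rose and 4 fell labelled GW3965, 1 rose and 0 fell labelled sorafenib, and 5 rose and 4 fell with both drugs in the authors' deposited tables. Of all genes, 26% were higher and 23.6% lower with both drugs in Hep3B, and 24.3% and 17.3% in Huh7. The shares in the other groups are those given for the cystine list. The list's median log2 fold change lay between -0.11 and 0.19 over the 6 authors' deposited tables. TXNRD1, thioredoxin reductase, rose by 1.16 in Hep3B and by 0.60 in Huh7 with both drugs, and was lower in Huh7 labelled GW3965, at -0.33 (log2, authors' deposited tables, edgeR FDR 2.57e-44, 0.000556 and 0.00281). SEPSECS, an enzyme of selenocysteine synthesis, rose by 0.51 with sorafenib and by 1.13 with both drugs in Hep3B, and by 0.40 with both drugs in Huh7 (log2, authors' deposited tables, edgeR FDR 0.000938, 1.97e-24 and 7.92e-05). DHODH, a mitochondrial enzyme that also reduces coenzyme Q, differed in direction with both drugs, at 0.31 in Hep3B and -0.54 in Huh7, and was at -0.45 in Huh7 labelled GW3965 (log2, authors' deposited tables, edgeR FDR 0.0103, 6.51e-05 and 0.00169). NQO1, a quinone reductase, was lower with both drugs in each line, at -0.45 in Hep3B and -0.42 in Huh7 (log2, authors' deposited tables, edgeR FDR 0.0056 and 0.00233). The single-drug calls of NQO1 were 0.50 with GW3965 and -0.39 with sorafenib in Hep3B, and 0.47 in Huh7 labelled sorafenib (log2, authors' deposited tables, edgeR FDR 0.000598, 0.03 and 0.0137).

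ACSL4 encodes the acyl-CoA synthetase that activates arachidonic and adrenic acid for membrane phospholipids, and so provides the lipids that ferroptosis oxidises. Its level, as implied by the authors' deposited tables, was 551 CPM with GW3965, 161 CPM with sorafenib and 115 CPM with both drugs in Hep3B, against 435 to 459.8 CPM with DMSO. In Huh7 this level was 269 CPM labelled GW3965, 368 CPM labelled sorafenib and 171 CPM with both drugs, against 343 to 352 CPM with DMSO. ACSL4 was the one gene of the 10 called in 5 comparisons, and its direction differed among them: higher with GW3965 in Hep3B and lower in the other 4. With both drugs it fell 3.98-fold in Hep3B, a log2 fold change of -1.99, and 2.00-fold in Huh7 in the authors' deposited tables (edgeR FDR 2.74e-89 and 1.92e-19). The other log2 fold changes in the authors' deposited tables were 0.34 with GW3965 (edgeR FDR 0.000114) and -1.52 with sorafenib (edgeR FDR 6.78e-38) in Hep3B, and -0.38 labelled GW3965 (edgeR FDR 0.0395) and 0.07 labelled sorafenib (edgeR FDR 1) in Huh7. ACSL4 shares its locus with KCNE5 on the same strand and with a processed pseudogene on the other.

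**Figure D2:**
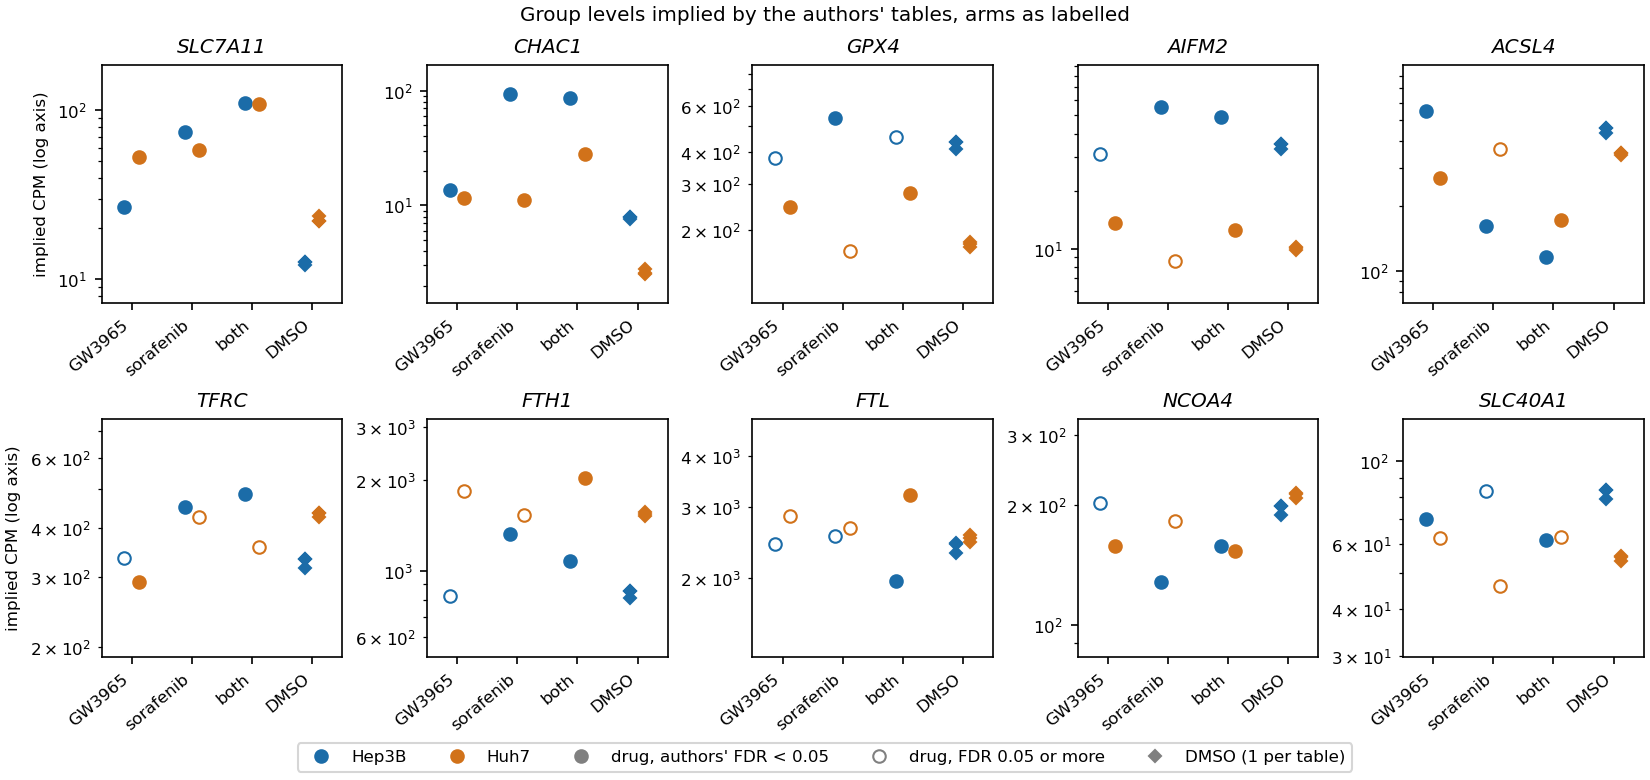
Implied group levels in CPM (log axis, scaled for each gene) of the 10 genes in Hep3B (blue) and Huh7 (orange), with GW3965, sorafenib and both drugs as labelled (circles, filled where the authors' edgeR FDR is under 0.05) and DMSO (diamonds, 1 for each of the authors' 3 deposited tables of a line). SLC7A11 lies above its DMSO diamonds in every drug group, and ACSL4 reaches its lowest point in each line with both drugs, 115 CPM in Hep3B and 171 CPM in Huh7.

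The 19 genes of membrane lipid supply for peroxidation, ACSL4 included, had 9 higher and 0 lower with GW3965 in Hep3B, 2 higher and 9 lower with sorafenib, and 6 higher and 5 lower with both drugs in the authors' deposited tables. In Huh7, 4 were higher and 3 lower labelled GW3965, 5 higher and 0 lower labelled sorafenib, and 5 higher and 4 lower with both drugs in the authors' deposited tables. Among all genes 26% were higher and 23.6% lower with both drugs in Hep3B, and 24.3% and 17.3% in Huh7. For the other groups these shares are given with the cystine list. The list's median log2 fold change was 0.18, -0.21 and 0.05 in the authors' deposited Hep3B tables and 0.16, 0.16 and 0.21 in those of Huh7. LPCAT3, which places polyunsaturated chains into phospholipids and is an LXR target, was at 231 CPM with GW3965, 41.3 CPM with sorafenib and 91.4 CPM with both drugs in Hep3B, against 61.6 to 65.1 CPM with DMSO, as implied by the authors' deposited tables. Its log2 fold changes in the authors' deposited tables were 1.91, -0.66 and 0.49 in Hep3B (edgeR FDR listed as 0, 7.36e-10 and 2.19e-09), and 0.20 labelled GW3965, 1.12 labelled sorafenib and 0.75 with both drugs in Huh7 (edgeR FDR 0.205, 1.37e-40 and 1.2e-14). LPCAT3 thus rose with both drugs in both lines, where ACSL4 fell. SCD, the desaturase that makes monounsaturated fatty acids, was at 1.97 with GW3965, -1.16 with sorafenib and 1.00 with both drugs in Hep3B (log2, authors' deposited tables, edgeR FDR 5.13e-201, 3.35e-15 and 1.55e-23). In Huh7 SCD rose by 0.80 labelled sorafenib and by 0.97 with both drugs (log2, authors' deposited tables, edgeR FDR 2.32e-16 and 7.2e-16). ACSL1, a synthetase for long-chain fatty acids, rose by 0.41, 1.49 and 2.01 with GW3965, sorafenib and both drugs in Hep3B, and by 0.73 labelled GW3965 and by 1.74 with both drugs in Huh7 (log2, authors' deposited tables, edgeR FDR 0.00064, 2.91e-23, 7.47e-76, 0.000418 and 8.26e-18). ACSL3, a synthetase of lipid droplets and the endoplasmic reticulum, was higher with GW3965 (1.35) and lower with sorafenib (-1.63) in Hep3B (log2, authors' deposited tables, edgeR FDR 1.06e-75 and 2.79e-58). In Huh7 ACSL3 was at -0.57 labelled GW3965, 0.66 labelled sorafenib and 0.63 with both drugs (log2, authors' deposited tables, edgeR FDR 5.72e-07, 1.94e-12 and 1.41e-08).

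Iron-responsive elements are short hairpins with a CAGTGN loop that iron regulatory proteins bind when iron is scarce. In the 3′ UTR of TFRC they protect the mRNA, and in the 5′ UTR of the ferritin and ferroportin mRNAs they hold back translation, so that RNA levels do not report the protein there. The hairpins of the genes below are shown because they tell the genes under this control apart from the others. They were searched on the transcript strand in GENCODE v29 transcripts (GRCh38) as a C, 5 bases, CAGTGN with N not G, and 5 bases that pair with the first 5, G-T pairs allowed. Of 18913 representative transcripts with a match in GENCODE, 151 (0.798%) held such a hairpin, and so did 4 of the 9 members matched (CHAC1 was not). The capitals mark the loop, and each is given 5′ to 3′.
TFRC 1: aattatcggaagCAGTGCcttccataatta
TFRC 2: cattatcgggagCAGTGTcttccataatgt
TFRC 3: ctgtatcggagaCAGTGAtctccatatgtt
TFRC 4: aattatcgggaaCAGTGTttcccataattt
FTH1: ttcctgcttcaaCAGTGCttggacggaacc
FTL: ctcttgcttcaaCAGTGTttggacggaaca
SLC40A1: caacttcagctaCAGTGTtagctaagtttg
The 4 TFRC hairpins lie in exon 19 of 19, in the 3′ UTR, at chr3:196050978-196051007, chr3:196050574-196050603, chr3:196050509-196050538 and chr3:196050462-196050491 on the minus strand. Those of FTH1 (chr11:61967573-61967602, minus strand), FTL (chr19:48965335-48965364, plus strand) and SLC40A1 (chr2:189580660-189580689, minus strand) lie in the 5′ UTR, in exon 1. SLC7A11, GPX4, AIFM2, ACSL4 and NCOA4 held none of these letters in this form. A match is a description of the sequence, not a measured site of binding.

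TFRC encodes the transferrin receptor, the main route of iron into most dividing cells. Its implied level in the authors' deposited tables was 336 CPM with GW3965, 449 CPM with sorafenib and 487 CPM with both drugs in Hep3B, against 316 to 334 CPM with DMSO. In Huh7 it was 291 CPM labelled GW3965, 424 CPM labelled sorafenib and 358 CPM with both drugs, against 425 to 435 CPM with DMSO. TFRC rose with sorafenib and with both drugs in Hep3B, by log2 fold changes of 0.43 and 0.55 in the authors' deposited tables (edgeR FDR 0.008 and 4.44e-12). It fell by 0.58 (log2) in Huh7 labelled GW3965 in the authors' deposited table (edgeR FDR 6.96e-08). TFRC was not called in the other 3 groups, with 0.09 for GW3965 in Hep3B, -0.04 labelled sorafenib in Huh7 and -0.25 for both drugs in Huh7 in the authors' deposited tables (edgeR FDR 0.634, 1 and 0.0527).

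Of the 11 genes of iron uptake, TFRC included, 1 was higher and 1 lower with GW3965 in Hep3B, 4 higher and 2 lower with sorafenib, and 3 higher and 3 lower with both drugs in the authors' deposited tables. In Huh7, 2 were higher and 4 lower labelled GW3965, 0 higher and 1 lower labelled sorafenib, and 2 higher and 4 lower with both drugs in the authors' deposited tables. Over all genes 26% were higher and 23.6% lower with both drugs in Hep3B, and 24.3% and 17.3% in Huh7. Shares for the other groups stand with the cystine list. The median log2 fold change of the iron uptake list ran from -0.21 to 0.03 over the 6 authors' deposited tables. TFR2, the second transferrin receptor and an iron sensor of hepatocytes, was at 6.77 CPM with sorafenib and 3.22 CPM with both drugs in Hep3B, against 1.24 to 1.29 CPM with DMSO, as implied by the authors' deposited tables. Its log2 fold changes in the authors' deposited tables were 2.45 and 1.32 in these groups (edgeR FDR 1.42e-23 and 1.03e-09), and 0.98 labelled GW3965 and 0.52 with both drugs in Huh7 (edgeR FDR 1.11e-05 and 0.000295). TF, which encodes transferrin and is also 1 of the 11 hepatocyte-derived markers, fell with both drugs in both lines, by 0.68 in Hep3B and by 0.29 in Huh7 (log2, authors' deposited tables, edgeR FDR 0.00248 and 0.0235). STEAP3, the reductase that acts on iron inside endosomes, was lower in 5 groups, at -0.58 with GW3965 and -0.57 with sorafenib in Hep3B, and at -0.44 labelled GW3965, -0.46 labelled sorafenib and -0.93 with both drugs in Huh7 (log2, authors' deposited tables, edgeR FDR 1.66e-07, 2.25e-06, 0.000147, 1.76e-05 and 6.07e-16).

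FTH1 encodes the ferritin heavy chain, which oxidises iron for storage. The authors' deposited tables imply a level of 826 CPM with GW3965, 1323 CPM with sorafenib and 1075 CPM with both drugs in Hep3B, against 812 to 859 CPM with DMSO. Huh7 cells held 1846 CPM labelled GW3965, 1527 CPM labelled sorafenib and 2034 CPM with both drugs, against 1515 to 1573 CPM with DMSO. FTH1 rose in Hep3B with sorafenib and with both drugs and in Huh7 with both drugs, by log2 fold changes of 0.62, 0.33 and 0.43 in the authors' deposited tables (edgeR FDR 2.19e-07, 0.000107 and 0.00155). The 3 groups not called had 0.02 with GW3965 in Hep3B, and 0.23 labelled GW3965 and -0.02 labelled sorafenib in Huh7 in the authors' deposited tables (edgeR FDR 1, 0.116 and 1). FTH1 overlaps BEST1 on the opposite strand. BEST1 stayed at 5.91 CPM or less in every group while its log2 fold changes reached 1.74 with both drugs in Hep3B in the authors' deposited tables (edgeR FDR 3.51e-28).

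FTL encodes the ferritin light chain, which helps the iron core to form. Its level, as implied by the authors' deposited tables, was 2421 CPM with GW3965, 2537 CPM with sorafenib and 1973 CPM with both drugs in Hep3B, against 2301 to 2436 CPM with DMSO. The Huh7 groups had 2839.9 CPM labelled GW3965, 2661 CPM labelled sorafenib and 3200.4 CPM with both drugs, against 2459 to 2549 CPM with DMSO. FTL was called with both drugs in each line and in opposite directions, at -0.30 in Hep3B and 0.38 in Huh7 (log2 fold changes, authors' deposited tables, edgeR FDR 0.00429 and 0.00337). The 4 single-drug groups had values from 0.06 to 0.16, none of them called in the authors' deposited tables. FTH1 has 25 and FTL 16 pseudogenes named after them in GENCODE v29 and NCOA4 has 3, and the authors' handling of reads shared by such copies is not stated, so the values of these genes are uncertain to that extent.

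NCOA4 encodes the receptor that carries ferritin to the autophagosome, where its iron is released. Its implied level in the authors' deposited tables was 202.5 CPM with GW3965, 128 CPM with sorafenib and 158 CPM with both drugs in Hep3B, against 189 to 199 CPM with DMSO. For Huh7 it was 158 CPM labelled GW3965, 182 CPM labelled sorafenib and 154 CPM with both drugs, against 209 to 214 CPM with DMSO. NCOA4 fell in 4 groups and was called higher in 0. Its log2 fold changes in the authors' deposited tables were -0.64 with sorafenib and -0.33 with both drugs in Hep3B (edgeR FDR 2.63e-10 and 0.00229), and -0.43 labelled GW3965 and -0.44 with both drugs in Huh7 (edgeR FDR 0.000197 and 3.38e-06). The remaining values were 0.10 with GW3965 in Hep3B and -0.23 labelled sorafenib in Huh7 in the authors' deposited tables (edgeR FDR 0.401 and 0.307). In Hep3B with sorafenib and in both lines with both drugs, NCOA4 was lower and FTH1 higher.

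Of the 7 genes of ferritin storage and turnover, 6 were measured, FTH1, FTL and NCOA4 among them, and FTMT was not found. With GW3965 in Hep3B 0 rose and 0 fell, and 2 rose and 2 fell both with sorafenib and with both drugs, by the authors' deposited tables. In Huh7, 1 rose and 1 fell labelled GW3965, 0 rose and 0 fell labelled sorafenib, and 4 rose and 1 fell with both drugs in the authors' deposited tables. With both drugs 26% of all genes were higher and 23.6% lower in Hep3B, and 24.3% and 17.3% in Huh7. The other shares are given with the cystine list. The ferritin list had a median log2 fold change of 0.33 in Huh7 with both drugs and between -0.03 and 0.07 in the other 5 authors' deposited tables. PCBP2, an iron chaperone, rose by 0.22 with sorafenib and by 0.24 with both drugs in Hep3B, and by 0.30 labelled GW3965 and by 0.75 with both drugs in Huh7 (log2, authors' deposited tables, edgeR FDR 0.0304, 0.00105, 0.0434 and 2.08e-19). PCBP1, its close relative, fell by 0.36 with sorafenib in Hep3B (log2, authors' deposited table, edgeR FDR 7.36e-05).

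SLC40A1 encodes ferroportin, the only known iron exporter of vertebrate cells. The authors' deposited tables imply a level of 69.9 CPM with GW3965, 82.8 CPM with sorafenib and 61.4 CPM with both drugs in Hep3B, against 79.3 to 83.8 CPM with DMSO. In Huh7 this level was 62.0 CPM labelled GW3965, 46.1 CPM labelled sorafenib and 62.5 CPM with both drugs, against 53.7 to 55.7 CPM with DMSO. It fell in Hep3B with GW3965 and with both drugs, by 0.18 and 0.45 (log2, authors' deposited tables, edgeR FDR 0.0477 and 2.48e-07). By the authors' deposited tables SLC40A1 had -0.02 with sorafenib in Hep3B (edgeR FDR 1), and 0.15 labelled GW3965, -0.26 labelled sorafenib and 0.22 with both drugs in Huh7 (edgeR FDR 0.208, 0.0549 and 0.0813), none of them called. The call with GW3965 in Hep3B was lost when the authors' p-values were adjusted over representative transcripts only.

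Among the 13 genes of iron export and hepcidin control, SLC40A1 included, 0 were higher and 1 lower with GW3965 in Hep3B, 4 higher and 3 lower with sorafenib, and 3 higher and 6 lower with both drugs in the authors' deposited tables. In Huh7, 4 were higher and 1 lower labelled GW3965, 0 were called labelled sorafenib, and 4 were higher and 5 lower with both drugs in the authors' deposited tables. All genes had 26% higher and 23.6% lower with both drugs in Hep3B, and 24.3% and 17.3% in Huh7. The cystine list gives these shares for the other groups. The list's median log2 fold change lay between -0.15 and 0.16 in the authors' deposited tables. CP, ceruloplasmin, the oxidase that works with ferroportin, fell 2.94-fold with sorafenib and 2.83-fold with both drugs in Hep3B, and 2.13-fold labelled GW3965 and 3.07-fold with both drugs in Huh7 (authors' deposited tables, edgeR FDR 1.6e-39, 2.33e-54, 4.17e-10 and 5.79e-22). TMPRSS6, the protease that restrains hepcidin expression, was higher with sorafenib (0.96) and lower with both drugs (-0.90) in Hep3B, and higher in Huh7 labelled GW3965 (1.18) (log2, authors' deposited tables, edgeR FDR 1.56e-08, 2.17e-08 and 4.05e-14). HAMP, the gene of hepcidin, rose to 0.893 CPM with sorafenib and 1.10 CPM with both drugs in Hep3B, against 0.291 to 0.325 CPM with DMSO, log2 fold changes of 1.59 and 1.92 in the authors' deposited tables (edgeR FDR 3.7e-06 and 2.77e-07). In Huh7 HAMP rose to 16.8 CPM labelled GW3965, against 9.24 CPM with DMSO, a log2 fold change of 0.86 in the authors' deposited table (edgeR FDR 3.34e-07), and it was not called with both drugs (0.33) or labelled sorafenib (-0.33). HFE, which signals iron load towards hepcidin, fell by 0.33 with sorafenib and by 0.78 with both drugs in Hep3B, and by 0.61 with both drugs in Huh7, where it was near 1 CPM (log2, authors' deposited tables, edgeR FDR 0.0151, 3.97e-10 and 0.0151).

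The 3 genes of the iron regulatory proteins differed among themselves. ACO1, which encodes iron regulatory protein 1, fell by 0.28 with sorafenib and by 0.58 with both drugs in Hep3B and by 0.32 with both drugs in Huh7 (log2, authors' deposited tables, edgeR FDR 0.0108, 4.53e-13 and 0.00148). FBXL5, the ubiquitin ligase subunit that marks the iron regulatory proteins for decay when iron is plentiful, rose by 0.52 with sorafenib and by 0.74 with both drugs in Hep3B, and by 0.44 labelled GW3965 and by 0.57 with both drugs in Huh7 (log2, authors' deposited tables, edgeR FDR 0.000156, 3.28e-14, 5.02e-05 and 8.04e-14). IREB2, which encodes iron regulatory protein 2, was called in 0 of 6 authors' deposited tables, with log2 fold changes from -0.11 to 0.05. As a list, 1 rose and 1 fell in Hep3B with sorafenib, in Hep3B with both drugs and in Huh7 with both drugs, 1 rose and 0 fell in Huh7 labelled GW3965, and 0 were called in the other 2 authors' deposited tables, with medians from -0.10 to 0.09. Regulation of these proteins by iron is largely after transcription. The shares of all genes called in each group are those given for the cystine list.

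**Figure D3:**
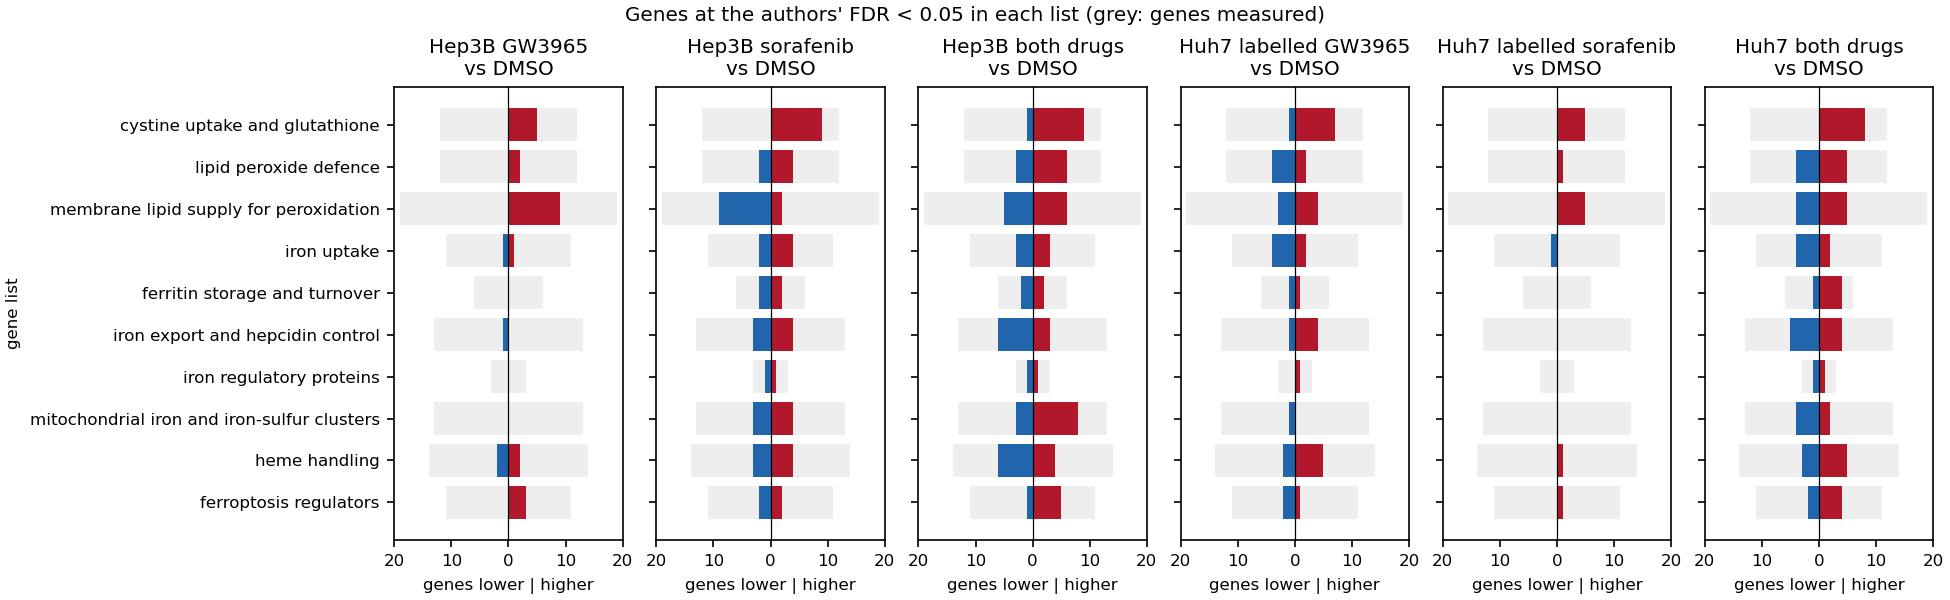
Number of genes of each pathway list that were higher (red, to the right) and lower (blue, to the left) at the authors' edgeR FDR under 0.05 in each of the 6 comparisons, with grey bars for the number measured on either side of 0. The cystine uptake and glutathione list shows 9 higher and 1 lower of 12 with both drugs in Hep3B and 8 higher and 0 lower in Huh7. Of all genes, 26% were higher and 23.6% lower in that Hep3B comparison, and 24.3% and 17.3% in that of Huh7.

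To set the genes side by side within the DMSO groups, the implied CPM was divided by the length of the representative transcript in GENCODE v29, in CPM per kb, for the 9 genes with a length (CHAC1 had none). In Hep3B the order was FTL (2621 to 2775), FTH1 (661 to 699), GPX4 (409 to 433), NCOA4 (81.7 to 86.4), ACSL4 (81.5 to 86.2), TFRC (62.9 to 66.4), SLC40A1 (23.0 to 24.3), AIFM2 (10.3 to 10.9) and SLC7A11 (1.26 to 1.32). In Huh7 it was FTL (2801 to 2904), FTH1 (1233 to 1280.0), GPX4 (172 to 179), NCOA4 (90.5 to 92.8), TFRC (84.5 to 86.5), ACSL4 (64.3 to 65.9), SLC40A1 (15.6 to 16.2), AIFM2 (3.02 to 3.15) and SLC7A11 (2.30 to 2.44). The ranges are over the 3 authors' deposited tables of a line and not over libraries, so NCOA4 and ACSL4 in Hep3B, whose ranges overlap, cannot be ordered, and the spread behind the other steps is unknown. Among these 9 genes the ferritin chains and GPX4 led in both lines, and SLC7A11 was the lowest in both by this measure. In Huh7 that last place rests on the lengths used, 9645 bases for SLC7A11 and 3243 for AIFM2. The CPM itself was 22.2 to 23.6 for SLC7A11 and 9.80 to 10.2 for AIFM2 there. Which transcripts the cells expressed is not known.

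The authors' deposited tables hold no comparison between drug groups. Differences of their log2 fold changes were therefore tested with an approximate 2-sided normal test whose errors come from the authors' p-values, with Benjamini-Hochberg adjustment over all genes at a mean of at least 2 CPM. Within a line this counts the error of the shared DMSO group more than once, which widens the intervals. Adding GW3965 to sorafenib in Hep3B, 4 of the 10 genes differed from sorafenib alone, against 31.1% of all genes tested, 1 higher (16.6% of all) and 3 lower (14.5%). SLC7A11 was higher by 0.56 (95% interval 0.23 to 0.89, adjusted p = 0.00554), and ACSL4 was lower, with a difference of -0.48 (-0.77 to -0.18, adjusted p = 0.00838). SLC40A1 differed by -0.43 (-0.69 to -0.17, adjusted p = 0.00653) and FTL by -0.36 (-0.64 to -0.08, adjusted p = 0.0403). CHAC1 differed by -0.11, with an interval from -0.37 to 0.15. The FTL difference had an adjusted p of 0.0642 when no minimum on expression was set.

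Set against GW3965 alone, 9 of the 10 genes differed in Hep3B with both drugs, against 63.8% of all genes tested, 5 higher (30.7% of all) and 4 lower (33.2%). CHAC1 was higher by 2.60 (95% interval 2.30 to 2.90, adjusted p = 1.29e-60) and SLC7A11 by 1.98 (1.67 to 2.29, adjusted p = 3.85e-35), while ACSL4 differed by -2.33 (-2.57 to -2.09, adjusted p = 1.29e-78). TFRC, AIFM2 and FTH1 were higher by 0.46, 0.57 and 0.30, and FTL, NCOA4 and SLC40A1 differed by -0.37, -0.43 and -0.27. GPX4 was not called, at 0.20 with an interval from -0.04 to 0.43. In Huh7, both drugs against the group labelled sorafenib gave 7 genes, against 47.1% of all genes tested, 6 higher (29.1% of all) and 1 lower (18%). The highest were CHAC1 at 1.31 (0.91 to 1.72), SLC7A11 at 0.90 (0.52 to 1.28) and GPX4 at 0.77 (0.55 to 0.99), and the one lower gene was ACSL4 at -1.07 (-1.33 to -0.81), all with an adjusted p of 1.83e-05 or lower. Both drugs against the Huh7 group labelled GW3965 gave 3 genes, against 30% of all genes tested, 2 higher (20.4% of all) and 1 lower (9.61%). These were SLC7A11 at 1.13 (0.62 to 1.64, adjusted p = 0.000207), CHAC1 at 1.39 (0.78 to 2.00, adjusted p = 0.000116) and ACSL4 at -0.62 (-0.97 to -0.26, adjusted p = 0.0042). The count was 5 with the error of the shared DMSO group, which cancels in this difference, taken out. GPX4 and TFRC were then added.

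The both-drug value was next set against the sum of the single-drug log2 fold changes, which in Huh7 is the same whichever single-drug label is which. ACSL4 was lower with both drugs than this sum in each line: -1.99 against -1.17 in Hep3B, a departure of -0.82 (95% interval -1.15 to -0.49, adjusted p = 4.5e-05), and in Huh7, where the sum was -0.31, a departure of -0.69 (-1.07 to -0.30, adjusted p = 0.00545). In Hep3B 4 of the 10 genes departed, against 22.2% of all genes tested, 0 higher than the sum (10.8% of all) and 4 lower (11.4%). The others were CHAC1, at 3.46 against a sum of 4.42 (adjusted p = 1.36e-05), SLC7A11, at 3.12 against 3.69 (adjusted p = 0.0314), and FTL, at -0.30 against 0.13 (adjusted p = 0.0386). CHAC1 and SLC7A11 thus rose with both drugs by less than the sum, while FTL fell where the sum was above 0. With no minimum on expression the count was 2, as SLC7A11 and FTL had adjusted p-values of 0.0512 and 0.0628. In Huh7 ACSL4 was the 1 gene called, against 21.2% of all genes tested, of which 15.3% were higher than the sum and 5.9% lower. CHAC1, at 3.46 against 4.22, had a departure of -0.76 with an interval from -1.45 to -0.07 (adjusted p = 0.109). With the error of the shared DMSO group counted once, 5 genes departed in Huh7, CHAC1, GPX4, TFRC and SLC40A1 besides ACSL4. The median departure of all genes tested was 0.14 in Huh7 and 0.02 in Hep3B. In simulated data the test recovered 4% of departures of 0.5 (log2) for Hep3B and 2% for Huh7. Only 200 genes departed there, of 11561 for Hep3B and 11457 for Huh7. The adjustment was thus stricter than in the data, where more genes were called, and recovery in the data may be higher. A gene not called may therefore depart by this much.

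**Figure D4:**
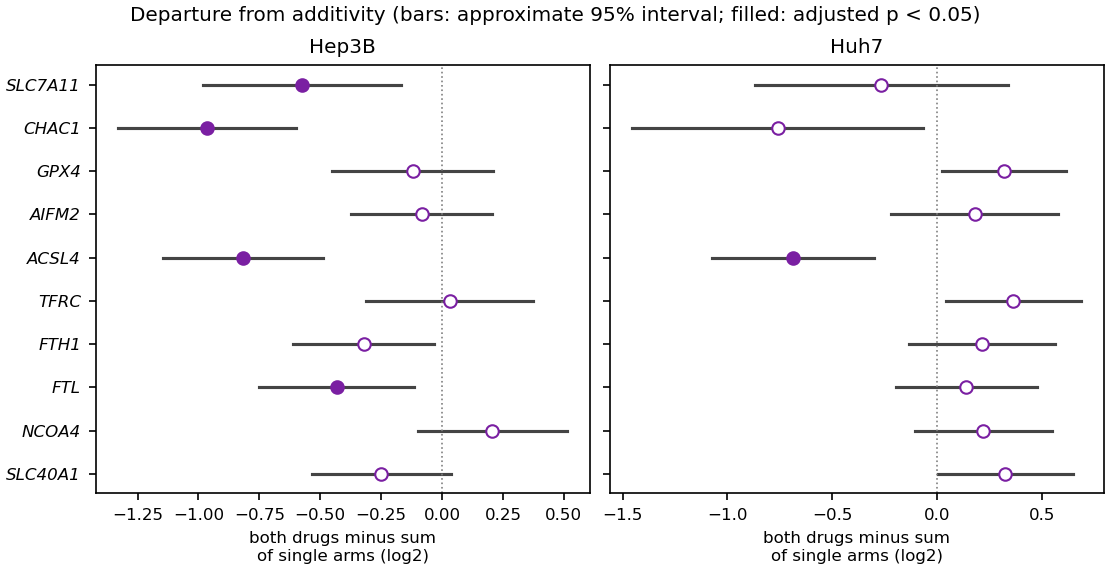
Departure of the both-drug log2 fold change from the sum of the single-drug ones for the 10 genes in Hep3B (left) and Huh7 (right), with approximate 95% intervals and filled points where the adjusted p is under 0.05. ACSL4 lies below 0 with an interval that excludes it in both lines, at -0.82 and -0.69.

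The both-drug responses of the lines differed for 6 of the 10 genes, against 44% of all genes tested, 2 higher in Hep3B than in Huh7 (17.7% of all) and 4 lower (26.3%). SLC7A11 responded more in Hep3B by 0.82 (log2, 95% interval 0.54 to 1.10, adjusted p = 1.32e-07) and TFRC by 0.79 (0.53 to 1.06, adjusted p = 6.88e-08). ACSL4 fell further in Hep3B, with a difference of -0.99 (-1.28 to -0.71, adjusted p = 2.25e-10). GPX4, FTL and SLC40A1 differed by -0.61, -0.68 and -0.66 (adjusted p = 2.7e-05, 4.69e-05 and 5.83e-06). CHAC1, whose both-drug fold was nearly the same in the lines, had an interval of the difference from -0.29 to 0.28, and AIFM2, FTH1 and NCOA4 were not called either. Between the groups labelled GW3965, 7 of the 10 responses differed between Hep3B and Huh7, against 24.8% of all genes tested, 3 higher in Hep3B (14.7% of all) and 4 lower (10.1%). Between the groups labelled sorafenib, 8 differed, against 35.9% of all genes tested, 6 higher in Hep3B (17.7% of all) and 2 lower (18.2%). The labels of the single-drug groups, which the marker genes go against in Huh7, enter both of these counts, so no direction is drawn from them about a drug.

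**Figure D5:**
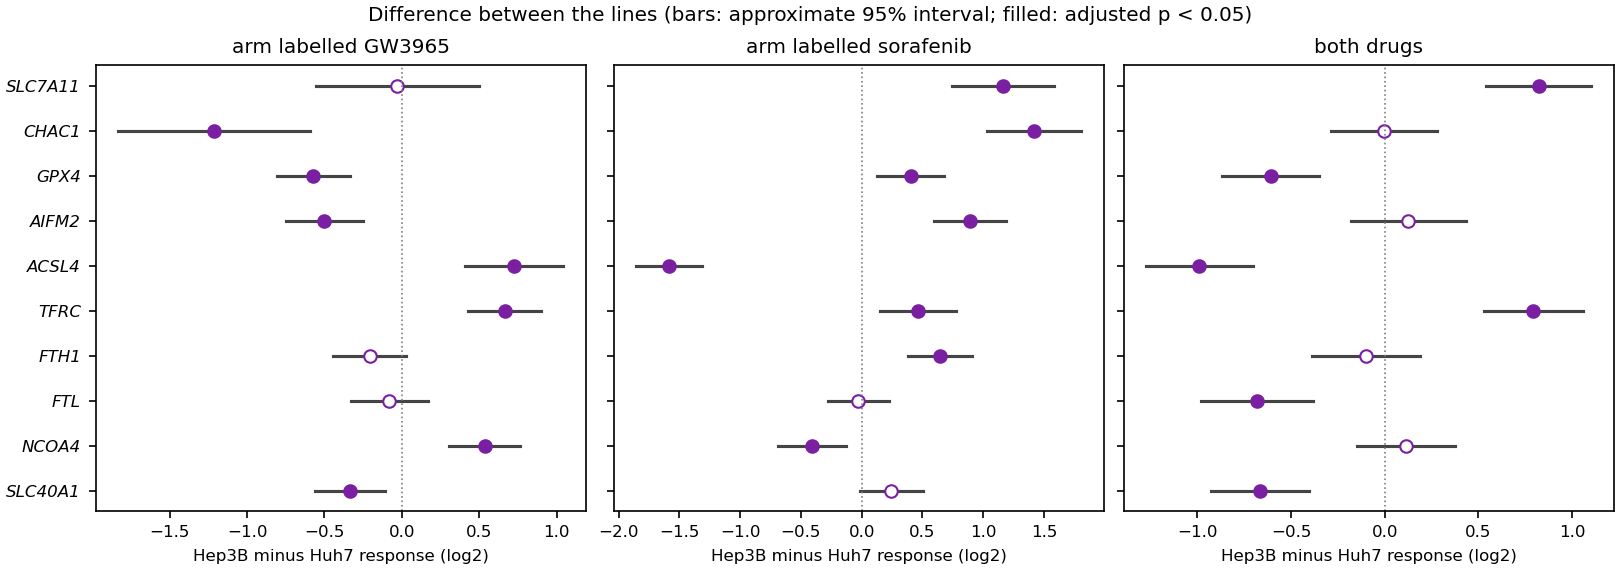
Difference between the lines, Hep3B minus Huh7, in the log2 response of the 10 genes to the arm labelled GW3965, the arm labelled sorafenib and both drugs, with approximate 95% intervals and filled points where the adjusted p is under 0.05. With both drugs SLC7A11 (0.82) and TFRC (0.79) lie to the right of 0 and ACSL4 (-0.99) farthest to the left.

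For the 5 genes called in at least 4 comparisons, the genes with the nearest values were sought by Euclidean distance over the 6 log2 fold changes among 11444 genes at a mean of at least 2 CPM. For SLC7A11 these were ADM2 (0.72), DDIT4 (0.75) and SLC6A9 (0.85). Those of CHAC1 lay farther off, STC2 (1.12), TRIB3 (1.38) and INHBE (1.56). For ACSL4 they were GLUD2 (0.16), PCOLCE2 (0.37) and SLC4A4 (0.45), for AIFM2 ABCC6P1 (0.16), FAM200B (0.20) and PRPSAP1 (0.24), and for NCOA4 NUP35 (0.15), SNRPA1 (0.17) and C1orf112 (0.18). The comparisons of a line share their DMSO libraries, and small distances are easier to reach for genes that moved little.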

How the data were processed

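Hep3B and Huh7 cells gave 70 poly-A RNA libraries, which their labels put in 8 groups. Builds hg19 and GRCh37 and the tool edgeR (version not named) come from the submitters' processing notes. Aligner, read counting, normalization and type of edgeR test: not given in the sources used here. The authors deposited, per the file headers, a log2 fold change, the mean log2 CPM, an FDR and an unadjusted p-value for each of 32321 transcripts in 6 comparisons, with 1 representative transcript per symbol. The authors' tests were not rerun. Columns of single libraries left unused numbered 0.

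Group levels were worked out so that their linear mean equals the deposited mean. For 9 further contrasts, an approximate 2-sided normal test was used. Each fold change was given as standard error its size on the log2 scale over the normal score of its p-value, with the median over genes of like expression (20 bins) used where p was over 0.5 and as a floor. Benjamini-Hochberg adjustment ran over all genes with a mean of 2 CPM or more in the tables used. The test was tested on simulated data for the departure from additivity, where 0% of unchanged genes were called. Departures of 0.5, 1 and 2 (log2) were recovered in 4%, 70% and 94% of cases for Hep3B and in 2%, 64% and 96% for Huh7. Named genes were the 10 members, up to 2 other genes of each of 10 lists with the largest called changes in a comparison, 14 genes named in every case, and the 3 nearest genes. Of these, a selection is given, and 1 is not reported here. The members and lists were chosen with earlier results of these data known. Iron-responsive hairpins were read from GENCODE v29 transcripts (GRCh38) and promoter windows from RefSeq (GRCh38.p14), with no coordinates converted. Python 3.11.15, pandas 2.3.3, numpy 2.4.6, scipy 1.17.1 and matplotlib 3.10.9 were used. The alternatives were another threshold, another set of genes for the adjustment, other transcripts, centring on the median, and no floor or minimum. A further one, chosen after seeing the data, counted the DMSO error once for additivity and took it out between drug groups.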

Additional observations from a re-analysis of the deposited data

Results flagged for a closer look

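Results are listed here because the response of a gene differed between Hep3B and Huh7 in the approximate test of the difference itself (adjusted p under 0.05), given as Hep3B minus Huh7 on the log2 scale. With both drugs the differences were 0.82 for SLC7A11 and 0.79 for TFRC, and -0.61 for GPX4, -0.99 for ACSL4, -0.68 for FTL and -0.66 for SLC40A1. FTL is the gene of these that the authors' deposited tables call in opposite directions in the lines.

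Between the arms labelled GW3965 the differences were -1.22 for CHAC1, -0.57 for GPX4, -0.50 for AIFM2 and -0.33 for SLC40A1, and 0.73 for ACSL4, 0.66 for TFRC and 0.54 for NCOA4. Between the arms labelled sorafenib they were 1.16 for SLC7A11, 1.42 for CHAC1, 0.40 for GPX4, 0.89 for AIFM2, 0.46 for TFRC and 0.64 for FTH1, and -1.59 for ACSL4 and -0.41 for NCOA4. Beside these stand ABCG1 and DUSP6, which in the authors' deposited tables had log2 fold changes of 5.99 and 0.33 in Hep3B and 0.75 and -1.70 in Huh7 labelled GW3965, and 0.59 and -2.40 in Hep3B and 3.82 and -0.02 in Huh7 labelled sorafenib. The part of the labels in these differences was not tested. Outlying libraries could not be sought without values of single libraries.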

How the results depend on the processing

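The 60 log2 fold changes of the 10 genes were judged under 300 alternatives, of which 293 kept the call, 5 lost it and 2 gained it. Centring on the median of expressed genes was among the alternatives for each of the 60, and no test was rerun on the centred values. Centring could therefore reverse a call but neither lose nor gain it, so its part of the 293 does not show that calls hold. A reversal was counted only for called values, and 0 of these reversed. Uncalled values near 0 could change sign with centring on the median of expressed genes. SLC40A1 was at -0.0165 in Hep3B with sorafenib, where that median was -0.0296. FTH1 was at -0.0214 in Huh7 labelled sorafenib, where that median was -0.0298. The 60 values of 10 other transcripts of 6 of the genes were all among those kept, and lay within 0.0157 of the representative ones. These transcripts had nearly the mean log2 CPM of the representative ones. The same reads may lie behind both, so the agreement is no independent check. Alternatives of threshold or adjustment left the fold changes as they were and could alter the call alone. Calls lost at an FDR threshold of 0.01 were SLC40A1 with GW3965 and GPX4 with sorafenib in Hep3B, ACSL4 in Huh7 labelled GW3965 and AIFM2 in Huh7 with both drugs. SLC40A1 was also lost with adjustment over representative transcripts, and with adjustment over expressed ones TFRC in Huh7 with both drugs and SLC40A1 in Huh7 labelled sorafenib were gained.

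Counts of called members moved by over 1.5 times in these cases. With the DMSO error taken out, both drugs against labelled GW3965 in Huh7 gave 5 (main 3). Counted once, that error gave 5 (main 1) for the Huh7 departure from additivity. The Hep3B departure gave 2 (main 4) with no minimum on expression and 2 at an adjusted p threshold of 0.01. The lines differed for 5 genes (main 8) in the arms labelled sorafenib at that threshold, without GPX4, TFRC and NCOA4. The cause was not tested. The other 46 alternatives for counts stayed within 1.5 times.

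No paired analysis was possible because the tables used hold no values of single libraries, so the replicate block and leaving out each replicate were not run. Depth, spread and outlying libraries are unknown.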

Other observations

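Heme handling, which frees or binds iron, moved in both directions. Of its 14 genes, 2 were higher and 2 lower with GW3965 in Hep3B, 4 higher and 3 lower with sorafenib, and 4 higher and 6 lower with both drugs in the authors' deposited tables. In Huh7, 5 were higher and 2 lower labelled GW3965, 1 higher and 0 lower labelled sorafenib, and 5 higher and 3 lower with both drugs in the authors' deposited tables. The shares of all genes in Hep3B were 4.51%, 17.3% and 26% higher and 2.28%, 17.4% and 23.6% lower, in the same order. Those in Huh7 were 9.13%, 1.25% and 24.3% higher and 11.3%, 0.796% and 17.3% lower. SLC48A1, which carries heme out of lysosomes, rose by 1.65 with sorafenib and by 1.38 with both drugs in Hep3B, and by 0.90 labelled GW3965 and by 1.38 with both drugs in Huh7 (log2, authors' deposited tables, edgeR FDR 7.85e-32, 3.05e-35, 8.17e-13 and 2.3e-41). HMOX1, heme oxygenase 1, rose by 0.39 with GW3965 in Hep3B and by 0.72 in Huh7 labelled GW3965 and was not called in the other 4 authors' deposited tables (edgeR FDR 2.93e-05 and 2.44e-10). UROD, an enzyme of heme synthesis, was at -0.66 with sorafenib and -1.16 with both drugs in Hep3B, and at -0.29 with both drugs in Huh7 (log2, authors' deposited tables, edgeR FDR 8.08e-08, 4.76e-35 and 0.00587).

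Of the 13 genes of mitochondrial iron and iron-sulfur clusters, 0 were called with GW3965 in Hep3B, 4 were higher and 3 lower with sorafenib, and 8 higher and 3 lower with both drugs in the authors' deposited tables, with medians of -0.05, 0.15 and 0.28. In Huh7, 0 were higher and 1 lower labelled GW3965, 0 were called labelled sorafenib, and 2 were higher and 4 lower with both drugs in the authors' deposited tables, with a median of -0.18 in the last. For this list and the regulators below, the shares of all genes are those given for heme handling. NFS1, the cysteine desulfurase, was at -0.29 both with sorafenib and with both drugs in Hep3B and at -0.82 with both drugs in Huh7 (log2, authors' deposited tables, edgeR FDR 0.00288, 0.00155 and 1.1e-13). Of 11 measured regulators of ferroptosis, 3 were higher and 0 lower with GW3965, 2 higher and 2 lower with sorafenib, and 5 higher and 1 lower with both drugs in Hep3B, and 1 higher and 2 lower labelled GW3965, 1 higher and 0 lower labelled sorafenib, and 4 higher and 2 lower with both drugs in Huh7, in the authors' deposited tables. ATF4, the transcription factor of the amino acid response, rose by 0.38, 1.32 and 1.25 with GW3965, sorafenib and both drugs in Hep3B, and by 0.50 labelled GW3965, 0.52 labelled sorafenib and 1.21 with both drugs in Huh7 (log2, authors' deposited tables, edgeR FDR 8.31e-05, 9.09e-41, 1.99e-41, 4.44e-05, 3.34e-09 and 8.64e-68). DDIT3, which encodes CHOP, had 0.07, 2.48 and 2.75 with GW3965, sorafenib and both drugs in Hep3B, and 1.35 labelled GW3965, 0.30 labelled sorafenib and 2.88 with both drugs in Huh7 (log2, authors' deposited tables).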
